A study of Sus scrofa with 12 samples.

Results

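The MHC class II genes of the pig are described here by the C/EBP-β binding sites mapped around them in the endometrium, the lining of the uterus. The 8 genes were taken by name: the SLA class II chains SLA-DRA, SLA-DRB1, SLA-DQA1, SLA-DQB1, SLA-DMA and SLA-DMB, the invariant chain CD74 and the class II transactivator CIITA. All 8 were found among the 19550 protein-coding genes on the chromosomes of the RefSeq annotation of Sscrofa11.1, the assembly also called susScr11. Tissue came from pregnant pigs (Sus scrofa) on day 15 of pregnancy (3 ChIP libraries) and on day 12 (3 ChIP libraries), and an antibody against C/EBP-β was used for both. No label gives the breed, age or number of animals or states that each replicate is a different animal, so each p-value measures the spread among libraries, which may be technical in part or whole. Lists from the 6 inputs were not used here. The files list peak summits of 1 bp, each with a score on a −log10 scale (of a p-value or of a q-value, unstated which). They hold no read counts, so the depth behind a summit is unknown, and whole tissue was used, so that more cells with an occupied site and more occupancy per cell cannot be told apart.

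MHC class II molecules are pairs of an alpha and a beta chain that show peptides from engulfed proteins to helper T cells. In pigs they are called swine leukocyte antigens (SLA), and their genes lie together in the MHC. CD74 occupies the peptide groove of new class II pairs, and the DM pair, SLA-DMA with SLA-DMB, exchanges the remnant of CD74 for peptide. CIITA is a coactivator that does not bind DNA itself: it joins RFX, CREB and NF-Y factors already bound upstream of class II genes, and interferon gamma induces it. In the pig, the conceptuses secrete interferons, interferon gamma among them, around the time of attachment. C/EBP-β belongs to the leucine zipper transcription factors and acts in inflammation and in the differentiation of many tissues.

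The lists held 11960 to 70152 summits on day 15 and 6557 to 57728 on day 12. The lowest score was 1.31 to 1.37 on day 15 and 1.31, 1.32 and 2.02 on day 12, where the highest floor belonged to replicate 1, the shortest list. Peak names divide the libraries into processing set A, whose names carry a directory path (day 15 replicates 2 and 3 and day 12 replicate 1), and set B (day 15 replicate 1 and day 12 replicates 2 and 3). The same sample code stands in the peak names of replicates 2 and 3 of day 15, so these may come from 1 sample, although the labels number them as separate replicates. The peak names of day 15 replicate 3 and of day 12 replicate 1 leave out the name of the protein, so that only the labels give C/EBP-β for these lists. Of the summits of day 15 replicate 3, 67.6% lay within 200 bp of one in day 15 replicate 2, a list of 16529 summits. The share was 72.8% for day 15 replicate 1 (70152 summits) and 63.6% for day 12 replicate 3 (57728 summits). At the same base were 52 summits in day 15 replicate 2, 77 in day 15 replicate 1 and 77 in day 12 replicate 3. Longer lists offer more summits to match, and the part of list length in these values was not tested. Without day 15 replicate 3, SLA-DRA within 5 kb and CD74 within 50 kb had summits in both remaining day 15 libraries and in no day 12 library, and 2 day 15 libraries are left. The share of all genes with this looser pattern was not computed. Below, a percentile is the place of a summit's score within its own list, and a gene counts as bound on a day when 2 of its 3 libraries had a summit within 5 kb of either gene end. The annotation gives no strand, so the 2 ends of a gene were not told apart. Results are given with and without single libraries where that changes them.

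At most 4 of the 8 class II genes had a summit close by in 5 of the 6 libraries, and most of those summits ranked low in their lists. On day 15, 7, 2 and 2 of the 8 genes had a summit within 5 kb in replicates 1 to 3, against 0, 1 and 4 on day 12. Among all protein-coding genes these shares were 64.8%, 44.6% and 37.6% on day 15 and 17.2%, 38.4% and 54.1% on day 12. The class II genes were thus below the share of all genes in 5 of the 6 libraries and above it, with 87.5%, in day 15 replicate 1, the longest list. The mean was 3.67 ± 2.89 genes on day 15 and 1.67 ± 2.08 on day 12 (SD, n = 3 each), a difference of 2 genes that is below the SD of either day. Over all genes the mean share with a summit was 12.4 percentage points higher on day 15. Leaving out day 15 replicate 1 gave 0.333 genes (4.49 points over all genes). Leaving out day 12 replicate 1 gave 1.17 (2.70 points), and leaving out day 12 replicate 3 gave 3.17 (21.2 points). Within set A the difference was 2 genes (23.9 points over all genes) and within set B 4.5 genes (18.5 points).

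Bound on day 15 were 3 class II genes (SLA-DRA, SLA-DQA1 and CD74), where 46.3% of all genes were bound, and on day 12 only SLA-DMA, where 38.1% of all genes were bound. The day 15 number was 1 without day 15 replicate 1, leaving SLA-DRA, with both remaining libraries needed, where 34.5% of all genes were bound. The day 12 number was 0 without day 12 replicate 2 or replicate 3, where 16.6% and 15.0% of all genes were. The class II genes had a median of 2 of 6 libraries with a summit within 5 kb, and all genes a median of 3. More day 15 than day 12 libraries had a summit at 4 class II genes (35.3% of all genes) and fewer at SLA-DMA (11.2% of all genes). None had a summit in all 6 libraries, as 13.1% of all genes did. SLA-DRA and CD74 had at least 2 day 15 libraries and no day 12 library, as 5.73% of all genes did, and no class II gene showed the reverse (0.89% of all genes).

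Within 50 kb all 8 class II genes had a summit in at least 2 day 15 libraries, against 74.2% of all genes, and 5 of them in at least 2 day 12 libraries, against 80% of all genes. The 3 that did not reach this on day 12 were SLA-DQA1, SLA-DQB1 and CD74. In all 6 libraries 3 had a summit within 50 kb (SLA-DMA, SLA-DMB and CIITA), as 40.5% of all genes did.

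**Figure D1:**
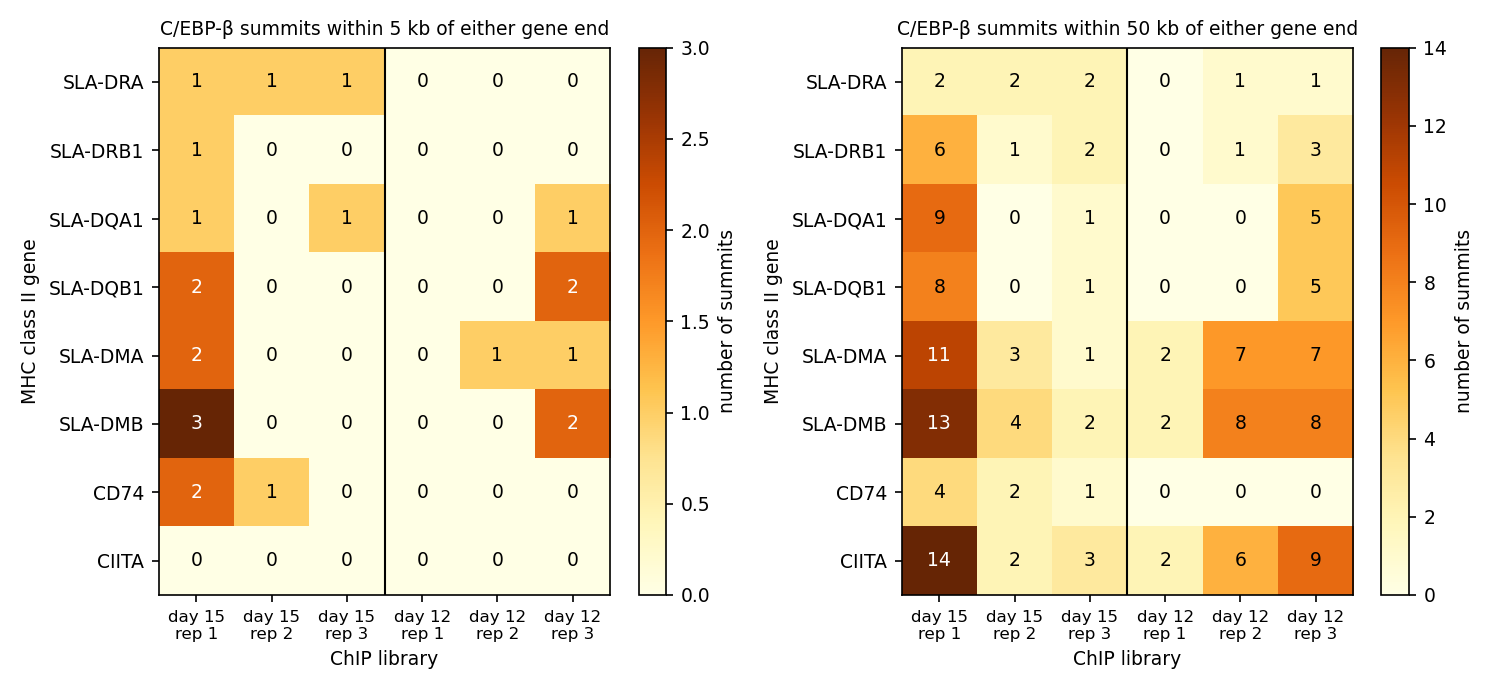
Number of C/EBP-β summits within 5 kb (left) and 50 kb (right) of either end of each MHC class II gene (rows) in each ChIP library (columns, day 15 left of the line and day 12 right). SLA-DRA has 1 summit within 5 kb in each day 15 library and 0 in each day 12 library, CIITA has 0 within 5 kb everywhere, and day 15 replicate 1 holds most summits.

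In all, 22 summits lay within 5 kb of a class II gene, 17 of them in the 2 longest lists, day 15 replicate 1 (11) and day 12 replicate 3 (6). Their percentiles ran from 1.98 to 70.3 with a median of 34.9. Of the 22, 15 ranked below the median of all summits within 5 kb of any protein-coding gene in the same list, a median that lay between percentiles 44.6 and 53.6. Without those 2 lists, the remaining 4 libraries gave 5 such summits.

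SLA-DRA encodes the alpha chain that all DR molecules share (chromosome 7, 24825037 to 24830650). Each day 15 library had a summit within 5 kb of it and no day 12 library did, a pattern found for 554 of all genes (2.83%), with 6 genes (0.0307%) showing the reverse. The day 15 replicate 1 summit lay 2344 bp below the gene, with a score of 8.44 (percentile 52.2). The replicate 2 summit lay 2397 bp below it, with a score of 1.73 (percentile 1.98). In replicate 3 the summit was inside the gene, 128 bp from its lower end, with a score of 1.98 (percentile 3.75). The summits of replicates 1 and 2 were therefore 53 bp apart, and that of replicate 3 marks another place. Scores in replicates 2 and 3 are below 2.02, the lowest score that the list of day 12 replicate 1 contains. When every list was held to that floor, SLA-DRA kept its summit in 1 day 15 library and still had none on day 12. With lists of equal length it had none on either day. Over all genes the pattern of 3 day 15 libraries and no day 12 library then had shares of 2.92% with that floor and 0.292% with equal lists, with no class II gene among them.

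SLA-DRB1, SLA-DQA1 and SLA-DQB1 encode further chains of DR and DQ molecules, and in mammals such genes are among the most variable known. SLA-DRB1 (24901386 to 24914016) had a summit within 5 kb in day 15 replicate 1 alone, 512 bp above the gene with a score of 4.68. SLA-DQA1 (24953472 to 24959313) had its summits at the lower gene end, 140 and 73 bp away in day 15 replicates 1 and 3, against 64 bp away in day 12 replicate 3. The scores were 8.61 and 4.8 on day 15 and 8.81 on day 12, at percentiles 53.3, 35.2 and 60.4. These 3 summits form the only site within 1 kb of a class II chain gene that 3 libraries shared (chromosome 7, 24953332 to 24953408), and it occurred on both days. SLA-DQB1 (24969034 to 24977238) had summits in 1 library of each day, again the longest list of each. One site there was shared, 163 bp above the gene in day 15 replicate 1 and 184 bp above it in day 12 replicate 3. Near copies of these genes lie in the cluster (SLA-DRB4, SLA-DRB5 and SLA-DQB2, annotated as pseudogenes). No source used here says how reads that match several copies were placed, so summits at DRB and DQB genes are uncertain, and their part in the result was not tested.

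Between the DR genes, a site shared by 5 libraries lay outside any class II gene. At chromosome 7, 24873613 to 24873626, their summits fell within 14 bp: all 3 of day 15 and day 12 replicates 2 and 3. Scores were 34.3, 12.3 and 4.61 in day 15 replicates 1 to 3 and 13.3 and 21.1 in day 12 replicates 2 and 3. Percentiles were 88.0, 75.6 and 31.9 on day 15 and 80.6 and 86.0 on day 12, far above those of the SLA-DRA summits in the same lists. The site is inside the long non-coding RNA gene LOC110261499, and the nearest end of a protein-coding gene, LOC100153139, was 8592 bp away. It lay 43.0 kb above SLA-DRA and 27.8 kb below SLA-DRB1, so within 50 kb the site counts for both of these class II genes. No other site within 50 kb of SLA-DRA had a day 12 summit.

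**Figure D2:**
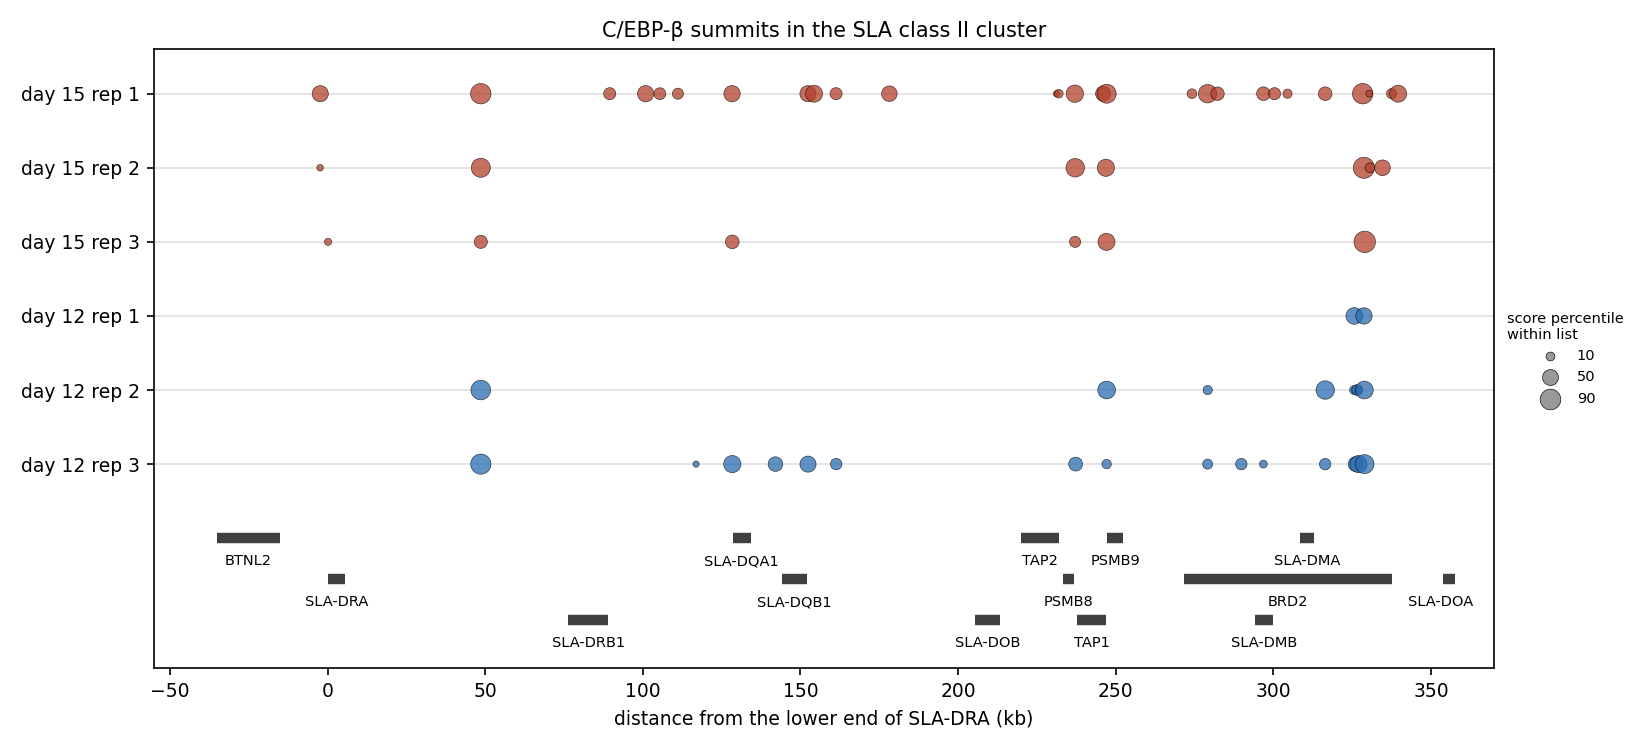
Summits of each ChIP library (rows, day 15 above day 12) along the SLA class II cluster, as distance in kb from the lower end of SLA-DRA, with dot size giving the score percentile within the list. Bars show annotated protein-coding genes, except those with LOC names, such as LOC100153139, which are not drawn. The column of dots between SLA-DRA and SLA-DRB1 is the site shared by 5 libraries, and the dense group on the right lies in BRD2, above SLA-DMA.

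SLA-DMA (25133494 to 25137928) and SLA-DMB (25119278 to 25125089), the 2 chains of the peptide exchanger DM, lie inside the annotated span of BRD2, the gene of a bromodomain protein that reads acetylated histones. SLA-DMA had a site 3.6 kb above the gene, at 25141481 to 25141506, with a score of 5.58 in day 15 replicate 1 against 10.0 and 3.86 in day 12 replicates 2 and 3. It was the only class II gene with a summit within 5 kb in more day 12 than day 15 libraries. SLA-DMB had summits within 5 kb only in the longest list of each day, with 3 in day 15 replicate 1 and 2 in day 12 replicate 3. One of the sites, inside SLA-DMB, was shared by these 2 libraries 24 bp apart.

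Summits were dense further up in BRD2. At 25153766 to 25154035, 5 libraries had a summit 15.8 to 16.1 kb above SLA-DMA: day 15 replicates 2 and 3 and all 3 of day 12. The scores were 27.6 and 41.7 on day 15 (percentiles 94.5 and 97.9) and 8.29, 8.71 and 13.2 on day 12 (percentiles 53.6, 64.5 and 74.6). Day 15 replicate 1 had its summit 376 bp from the nearest of these, with a score of 35.1, so that joining summits within 500 bp gave a site of all 6 libraries. Between 25150697 and 25152229, 7 summits of the day 12 libraries (1, 4 and 2 in replicates 1 to 3) formed 4 sites without a summit of day 15.

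Counted over the whole cluster, the same summits served several genes. The SLA class II cluster, from SLA-DRA to SLA-DMA with 50 kb either side, spans 413 kb (chromosome 7, 24775037 to 25187928) and held 66 summits. Of these, 51 lay within 50 kb of at least 2 of the 6 SLA genes, 9 of 1 gene and 6 of none. Adding up the summits of the 6 genes gives 118, so the 6 counts are not separate measurements. Within 5 kb, 19 summits lay near an SLA gene and 1 of them near 2 genes, SLA-DMA and SLA-DMB. Joined within 200 bp, the 66 summits made 38 sites, 24 of them from a single library and 17 from day 15 replicate 1 alone. Sites with a day 15 but no day 12 summit numbered 21, and 17 of them came from day 15 replicate 1 alone, the longest list. Those of day 12 alone numbered 7, with 3 from day 12 replicate 3 alone, and 10 occurred on both days. The shares of such sites over the whole lists were not computed, so the numbers cannot show that the cluster differs between days.

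The most recurrent sites of the cluster lay away from the ends of class II genes. Only 4 sites were found in 4 or more of the 6 libraries, and no site had every library of a day and none of the other. Besides the sites in LOC110261499 and in BRD2, these were one between PSMB8 and TAP1 (25062076 to 25062330, 3 day 15 libraries and 1 day 12 library) and one at the facing ends of TAP1 and PSMB9 (25071923 to 25072174, 3 and 2 libraries). TAP1 is a subunit of the peptide transporter, and PSMB8 and PSMB9 are immunoproteasome subunits. None of the 4 lay within 5 kb of a class II gene. Without day 15 replicate 3 the number with 4 libraries was 2.

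CD74 lies apart from the cluster (chromosome 2, 151402210 to 151409924). It was the only class II gene with a summit within 50 kb in all 3 day 15 libraries and in no day 12 library, a pattern found for 101 of all genes (0.517%). Summits within 50 kb numbered 4, 2 and 1 on day 15, and 0, 0 and 0 on day 12. At its upper end, inside the gene, summits lay 203 bp from the end in day 15 replicate 1 (score 7.44) and 62 bp from it in replicate 2 (score 5.17). Replicate 3 had none within 5 kb. The summit that all 3 day 15 libraries shared was at 151433973 to 151434046, 24.0 to 24.1 kb above CD74, with scores of 8.51, 18.6 and 8.67 and percentiles of 52.7, 87.7 and 64.4. That site lies beside the overlapping ends of RPS14, a ribosomal protein gene, and NDST1, a heparan sulfate enzyme gene, and counts for both within 5 kb. With a score of at least 5 the pattern was the same, and with a score of at least 10 only 1 day 15 library, replicate 2, had a summit. With lists of equal length, 2 day 15 libraries and 0 day 12 libraries had a summit. The shares of all genes with these patterns within 50 kb were not computed for the filtered or equal lists.

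CIITA (chromosome 3, 32171706 to 32230775) had no summit within 5 kb of an end in any library, as had 29.5% of all genes. Within 50 kb it had 14, 2 and 3 summits on day 15, and 2, 6 and 9 on day 12, the days overlapping. The most shared sites lay below it, at the neighbouring ends of CLEC16A and DEXI. One at 32157245 to 32157303 had summits in day 15 replicates 1 and 3 and in all 3 day 12 libraries, 14.4 to 14.5 kb from CIITA. Another at 32158392 to 32158423 had summits in all 3 day 15 libraries and in day 12 replicates 1 and 3, 13.3 kb from CIITA. The site at 32160121 to 32160243, beside the lower end of DEXI, had 3 day 15 libraries and no day 12 library. Its scores were 2, 7.9 and 2.99 (percentiles 2.95, 57.2 and 11.7). A summit of day 12 replicate 2 lay 637 bp below this site, at 32159484, with a score of 2.58 (percentile 8.06). How many sites of the whole lists had 3 day 15 libraries and no day 12 library was not computed. The strongest site inside CIITA was at 32214154 to 32214166, 16.6 kb from its upper end. Its summits came from day 15 replicate 1 (score 56.2, percentile 93.7) and from day 12 replicates 2 and 3 (scores 14.7 and 15.4, percentiles 83.0 and 78.6), which are the 3 libraries of set B, and none from set A.

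**Figure D3:**
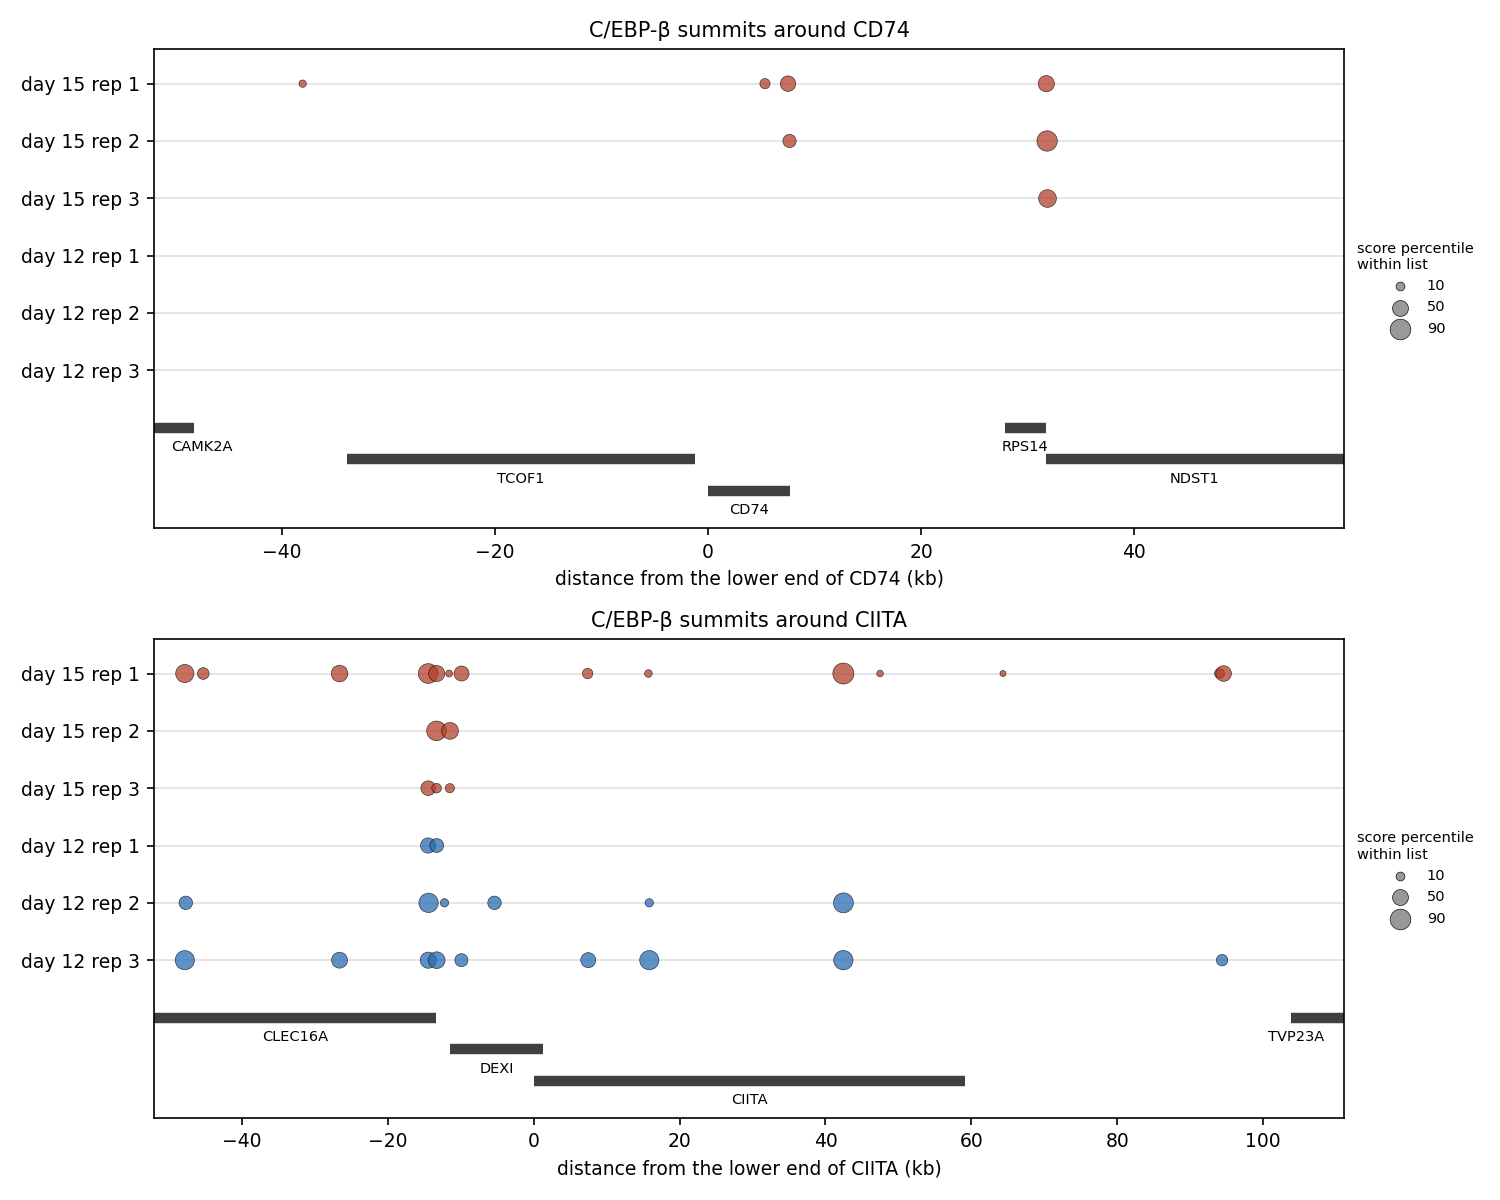
Summits of each ChIP library (rows, day 15 above day 12) around CD74 (top) and CIITA (bottom), as distance in kb from the lower end of the gene, with dot size giving the score percentile within the list and bars showing protein-coding genes, cut at the edge of the plot. CD74 has summits in the 3 day 15 libraries and 0 in the 3 day 12 libraries, whereas around CIITA both days have summits, grouped at the ends of CLEC16A and DEXI.

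The number of summits within 50 kb was tested between days for every protein-coding gene with a two-sided exact permutation test over 3 against 3 libraries, which cannot give a p below 0.1. No gene passed at an adjusted p of 0.05 (Benjamini-Hochberg over 19550 genes) or at an unadjusted p of 0.05. SLA-DRA had 2, 2 and 2 summits on day 15 and 0, 1 and 1 on day 12. The difference was 1.33 (exact p = 0.1, adjusted 1), and the days did not overlap. With a score of at least 5 it was 0.333 (exact p = 1) and with the common floor of 2.02 it was 0.667 (exact p = 0.6), and in both cases the days overlapped. For CD74 it was 2.33 (exact p = 0.1, adjusted 1), and the days did not overlap either. Every day 15 library had more summits than every day 12 library at 2.84% of all genes, and the reverse held at 0.0307%. The other 6 class II genes overlapped between days. Their differences ran from -0.333 for SLA-DMA to 1.67 for SLA-DRB1 and SLA-DQA1, with exact p between 0.6 and 1 before adjustment. Without day 15 replicate 1 the difference of SLA-DRB1 was 0.167 and that of SLA-DQA1 was -1.17. The median difference was 1.33 summits over the class II genes and 0.333 over all genes. Without day 15 replicate 1 these medians were -1.17 and -0.667, without day 12 replicate 1 they were 0.667 and -0.333, and with equal lists both were 0.

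The share of each list that fell in the SLA class II cluster was computed beside the counts. On day 15, 27, 7 and 6 summits, or 0.385, 0.423 and 0.502 per 1000 summits of the list, lay in the cluster. On day 12 it was 2, 9 and 15 summits, or 0.305, 0.270 and 0.260 per 1000. The 95% exact binomial (Clopper-Pearson) intervals, which cover counting error only, were 0.254 to 0.560, 0.170 to 0.872 and 0.184 to 1.09 on day 15, and 0.0369 to 1.10, 0.124 to 0.513 and 0.145 to 0.429 on day 12. Within each day the share was higher the shorter the list. All 6 intervals overlap, although the 3 day 15 values lie above the 3 day 12 values. The mean was 0.437 ± 0.0595 on day 15 and 0.278 ± 0.0236 on day 12 (SD, n = 3 each), a difference of 0.158 (two-sided exact permutation p = 0.1, the smallest possible). Set A alone gave 0.158 and set B alone 0.120 (p = 0.111 by exact permutation that keeps the sets, the smallest possible). In windows of the same length centred on each protein-coding gene, the same order of days was found for 9.17%, and the opposite order for 6.46%. With lists of equal length the difference was 0.102 (exact permutation p = 0.8).

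**Figure D4:**
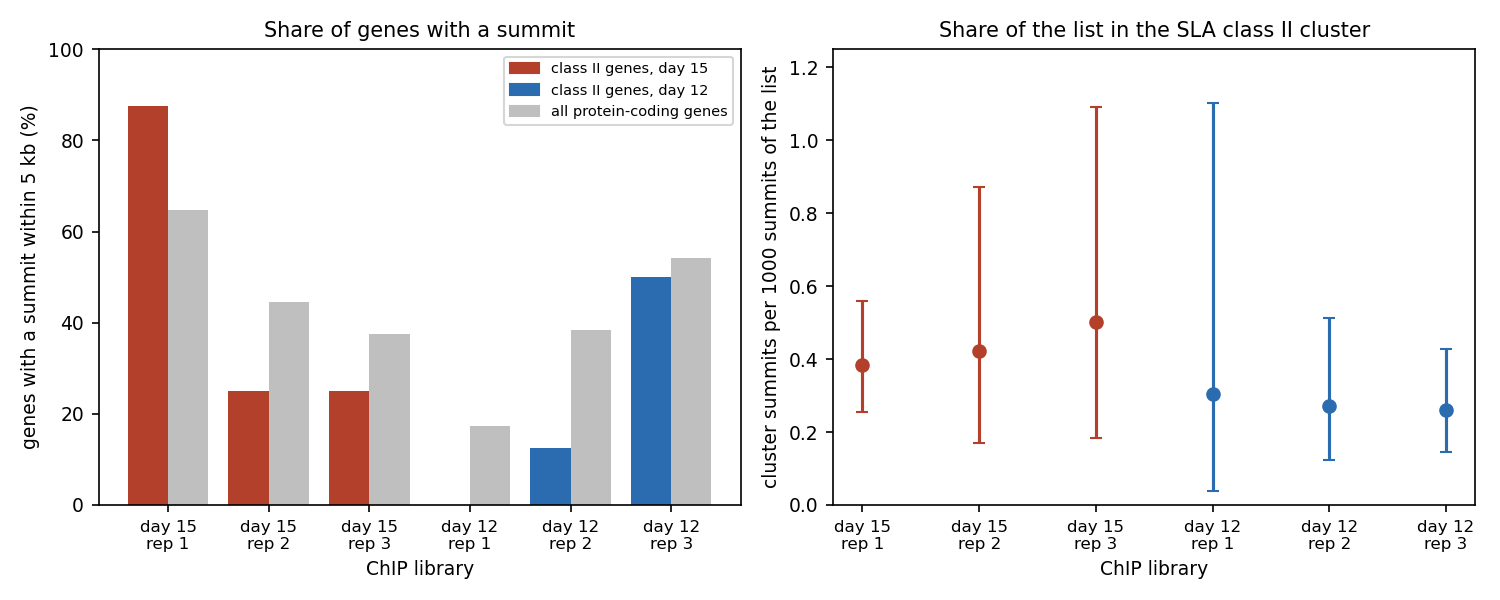
Left, percent of the 8 class II genes (coloured bars, day 15 red and day 12 blue) and of all protein-coding genes (grey bars) with a summit within 5 kb in each ChIP library. Right, summits in the SLA class II cluster per 1000 summits of the list (dots) with 95% exact binomial intervals (bars). Class II genes exceed all genes only in day 15 replicate 1, and all 6 intervals on the right overlap.

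Genes that act with class II were counted in the same way, with no test of the lists, beside shares over all genes of 46.3% for day 15 and 38.1% for day 12. Of the class II transcription machinery, 9 of 10 were bound on day 15 and 5 of 10 on day 12. RFX5, which encodes the DNA-binding subunit of RFX, and CREBBP, a histone acetyltransferase gene, had a summit within 5 kb in every day 15 library and in 1 of 3 on day 12. KAT2B, another acetyltransferase gene, had one in 2 of 3 and 0 of 3, and NFYA, a subunit of NF-Y, in all 6. RFXANK had a summit in all 6 as well, and RFXAP had none in any library. Along the interferon gamma route to CIITA, 8 of 8 were bound on day 15 and 7 of 8 on day 12. JAK1, a kinase of the receptor, had a summit in 3 of 3 and 1 of 3 libraries. USF1, which binds a CIITA promoter in human and mouse, and SOCS1, the feedback inhibitor, had a summit in all 6.

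Of 12 listed genes for further class II chains and peptide processing, 9 matched the annotation. On day 15, 3 were bound (the cathepsin gene CTSB, the endopeptidase gene LGMN and the ubiquitin ligase gene MARCH8). On day 12, 3 were bound (IFI30, which encodes a lysosomal thiol reductase, with CTSB and MARCH8). These 4 genes were named after their values were seen. SLA-DOA and SLA-DOB, the chains of the DM inhibitor DO, had no summit within 5 kb in any library. Of the 6 listed neighbours inside the cluster, 4 were bound on day 15, against 2 on day 12. PSMB8 had a summit within 5 kb in 3 of 3 and 1 of 3 libraries and BRD2 in 2 of 3 and 0 of 3. No gene of these lists had 3 of 3 libraries on day 15 and 0 of 3 on day 12, as 2.83% of all genes did, or the reverse (0.0307%). SLA-DRA had the first pattern, but with shares this low and lists this short, finding none in them does not set it apart.

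Cell type markers were counted for their summits, which do not measure expression, so the labelled tissue could not be checked by them. Of 13 matched markers of antigen-presenting and lymphoid cells, 4 were bound on day 15 and 4 on day 12, beside 46.3% and 38.1% of all genes. Of the same markers 6 had no summit within 5 kb in any library, among them CSF1R, FLT3 and PTPRC, beside 29.5% of all genes. CD68 and ITGAM had a summit in all 6 libraries, as 13.1% of all genes did. CD14 and XCR1 had a summit in 2 of 3 libraries of each day. Of 4 epithelial markers 2 were bound on day 15 and 2 on day 12, and of 4 stromal markers 4 and 2. By library, 7, 4 and 2 of the 13 markers had a summit on day 15 and 2, 4 and 4 on day 12, and their part in the class II values was not tested.

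The genes whose pattern was most like that of a class II gene were found from the best score percentile within 5 kb in each of the 6 libraries, with 0 for no summit. For SLA-DRA the nearest was ARHGEF17, at a Euclidean distance of 2.03 percentile points, where 2 day 15 libraries and no day 12 library had a summit. Nearest to SLA-DQA1 was LOC100157763 (7.88 points, 2 of 3 and 1 of 3 libraries), and to SLA-DMA it was LOC100627357 (13.9 points, 1 of 3 and 2 of 3 libraries). The other 5 class II genes had a summit in fewer than 3 libraries and were not compared.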

How the data were processed

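The submitters' processing notes list the build susScr11 and the tools Bowtie2 2.3.5.1 (aligner), SAMtools 1.9 and MACS2 2.1.2 (peak caller). No source used here states the threshold for a peak, whether the input served as background, or how duplicate and multiply placed reads were treated. The deposited score of a summit is on a −log10 scale, of a p-value or of a q-value, unstated which. Such scores depend on sequencing depth: percentiles were taken within a list, scores of different lists are given side by side without a test, and the score filters below apply 1 threshold to lists of unequal depth.

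Unplaced sequences were left out, keeping the 18 autosomes, X and Y, and positions were counted from 1. Gene ends came from the RefSeq table of Sscrofa11.1, which holds no strand, exons or sequence, so no sequence or motif is given. Distances are to the nearer end of a gene. Neighbouring summits up to 200 bp apart, whatever their library, made 1 site. Of 58 genes in 7 related lists, 54 matched a protein-coding gene by symbol, MARCHF1 and MARCHF8 under their older symbols. Python 3.11.15, numpy 2.4.6, pandas 2.3.3 and scipy 1.17.1 were used, and the counting was tested on simulated lists.

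The class II genes, the lists and the tests were chosen with earlier results of these data known. The naming rule took the class II genes, up to 4 genes from each of 4 pathway lists (genes with a gap of 2 or more libraries between the days before those in all 6, alphabetically) and the gene of nearest pattern. A gene that the rule takes is not reported here. Cell type markers and genes beside a site are named beyond that rule. So are RFXANK, RFXAP, SLA-DOA, SLA-DOB, CTSB, LGMN, MARCH8 and IFI30, with their values known. Alternatives were windows of 1 or 50 kb or the gene body, scores of at least 5 or 10, equal lists of 6557 summits, all 3 libraries, other joining distances, a narrower cluster, each library left out, the replicate block and processing sets. A common score floor of 2.02 was chosen after seeing the data.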

Additional observations from a re-analysis of the deposited data

How the results depend on the processing

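The day 15 number, 3 within 5 kb (46.3% of all genes), was 8 with 50 kb (74.2% of all genes), 1 when all 3 libraries were needed (33.7%), 1 with a score of at least 5 (36.2%), 0 with at least 10 (20.3%) and 0 with lists of the same length (20.3%). On day 12 the number, 1 (38.1%), became 0 with 1 kb (21.2%), 5 with 50 kb (80%), 2 with the gene body (50.9%), and 0 when all 3 libraries were needed (14.8%), with a score of at least 5 (26.6%), a score of at least 10 (14.0%) and equal lists (9.68%). Leaving out single libraries gave 1 to 3 on day 15 (34.5% to 46.3% of all genes) and 0 to 1 on day 12 (15.0% to 38.1%). Where the library left out was of the same day, both remaining libraries were needed. Sites of the cluster with at least 4 libraries, 4 in number, were 1 with a score of at least 10, 0 with equal lists, 2 when joined within 100 bp and 2 to 4 with a library left out.

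The difference between days in class II genes with a summit ran from 0.333 to 3.17 with a library left out. Over all genes the difference in share then ran from 2.70 to 21.2 percentage points. The difference in the cluster share ran from 0.126 to 0.184. No setting could give a call for summits within 50 kb, since exact p cannot fall below 0.1. Of 96 differences of single genes under alternatives, 71 kept their direction and 25, at 7 genes, turned or became 0. SLA-DMA (-0.333) became 0.667 with a score of at least 5, 1 with at least 10, 0 with equal lists, 0.333 with the common floor and 2 within processing sets. CIITA (0.667) became -0.333 under both score filters, equal lists and the common floor. SLA-DRA and SLA-DRB1 became 0 with a score of at least 10 and with equal lists, and SLA-DQA1 and SLA-DQB1 0 with equal lists. With a library left out, SLA-DMA ran from -3.33 to 1.67, SLA-DMB from -3 to 2.5, CIITA from -3.17 to 2.83, SLA-DQA1 from -1.17 to 3.33, SLA-DQB1 from -1.17 to 3, SLA-DRB1 from 0.167 to 2.67, CD74 from 1.5 to 3 and SLA-DRA from 1 to 1.5. SLA-DQA1, SLA-DQB1, SLA-DMB and CIITA turned without day 15 replicate 1, SLA-DMB and CIITA also without day 12 replicate 1, and SLA-DMA without day 15 replicate 2 or 3 or day 12 replicate 2 or 3. The cause of these moves was not tested. The replicate block gave exact paired p = 0.25 for the cluster share, the smallest possible with 3 pairs. The labels do not say that replicate numbers pair animals, so the numbers were not taken to pair libraries. Same-numbered libraries did not deviate together over all genes (correlations of -0.571, -0.116 and -0.430). Each such pair joined a set A library to a set B library, and the highest correlation, 0.511, was within set A. These values therefore cannot show whether the numbers pair animals. Without read counts, a missing summit cannot be told from one below the threshold of its list.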
